A study of Homo sapiens with 6 samples.

Results

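RNA levels of 9 enzymes of serine synthesis and folate one-carbon metabolism were examined in HMCB cells, an established human melanoma line labelled as carrying NRAS Q61K, after knockdown of AHCYL1. The genes were taken by symbol from a deposited table of 26902 genes, and all 9 were found. They are PHGDH, PSAT1 and PSPH of serine synthesis, SHMT1 and MTHFD1 of the cytosolic folate branch, and SHMT2, MTHFD2, MTHFD1L and ALDH1L2 of the mitochondrial folate branch. Cells received an siRNA against AHCYL1 (siAHCYL1, 3 libraries) or a control siRNA (siNC, 3 libraries), and RNA was taken on day 3. Both groups share the cell line and its genotype, and the sequence of neither siRNA is given in the sources used here. Replicates are called biological without separate cultures being named, so p-values measure the spread between these libraries, which may be partly technical. The question the series sets is how AHCYL1 acts on proliferation of NRAS-mutant melanoma cells.

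In serine synthesis, a glycolytic intermediate is oxidised, given an amino group and freed of its phosphate to yield serine. Serine then passes a carbon unit to tetrahydrofolate, either in the cytosol or in mitochondria. In many proliferating cells the mitochondrial branch turns serine into formate, which leaves the organelle and feeds purine and thymidylate synthesis in the cytosol. Several of these genes are known targets of ATF4, the transcription factor of the amino acid stress response.

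The values are TPM, a share of the library's transcripts, which are divided by transcript length and can be compared between genes but keep no sequencing depth. Between 13035 and 13189 genes reached 1 TPM per library. AHCYL1 itself had 13.45, 11.13 and 10.97 TPM in siAHCYL1 cells, against 150.02, 134.05 and 131.09 TPM in siNC cells, so the knockdown left 8.56% of the control level. Of 10 melanocytic markers, SOX10, the neural crest transcription factor, was at 992.99 to 1026.67 TPM in siAHCYL1 and 1025.35 to 1049.98 TPM in siNC, while TYR and GPR143 were listed at 0 in all 6 libraries and MLANA stayed under 1 TPM. Of the 7 melanocytic markers tested, 4 were higher (S100B, S100A1, TYRP1 and PMEL) and 1 was lower (DCT). By the same test and filter, described below, 30.4% of all genes tested were higher and 21.2% lower. DCT was at 0.15 to 0.62 TPM in siAHCYL1 and 10.79 to 11.95 TPM in siNC, and met the filter only through siNC. PMEL had 1.94, 1.63 and 1.91 TPM in siAHCYL1 and 1.53, 0.76 and 0.34 TPM in siNC. It met the filter through its siAHCYL1 libraries, and its siNC libraries alone would not have done so. The calls of DCT and PMEL are therefore descriptions. S100B was at 26.07 to 32.26 TPM in siAHCYL1 and 10.21 to 11.35 TPM in siNC, and the 10 markers summed to 1198.35 to 1255.56 TPM in siAHCYL1 and 1168.6 to 1207.8 TPM in siNC. The 5 keratinocyte and epithelial markers summed to 0.52 to 1.43 TPM in siAHCYL1 and 0.64 to 2.07 TPM in siNC. The 5 fibroblast markers, mostly LUM, summed to 26.06 to 32.42 TPM in siAHCYL1 and 15.28 to 17.93 TPM in siNC, with PDGFRA at 0. The 5 immune and blood markers, almost all PTPRC, summed to 7.3 to 10.84 TPM in siAHCYL1 and 3.19 to 3.92 TPM in siNC, with CD3E and HBB at 0. The 5 endothelial markers, almost all KDR, summed to 6.29 to 7.19 TPM in siAHCYL1 and 8.81 to 11.15 TPM in siNC, with VWF at 0. The part of these markers in the results was not tested, and in bulk RNA fewer cells of a type and less RNA per cell cannot be told apart.

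The pathway did not move as a block. After the AHCYL1 siRNA 4 of the 9 enzymes fell (PHGDH, PSAT1, SHMT2 and MTHFD2), 3 rose (MTHFD1L, MTHFD1 and PSPH), and 2 did not pass the test (SHMT1 and ALDH1L2). The test was limma's moderated test on log2(TPM + 1) with a Benjamini-Hochberg adjusted p below 0.05, over the 13266 genes that reached 1 TPM in 3 or more libraries, and all 9 enzymes did so in both groups. By that rule 51.6% of all genes tested changed, 30.4% higher and 21.2% lower, so change in either direction was common among expressed genes. Under quantile normalization 48.1% of all calls were higher, against 58.9% in the fit reported here. The groups did not overlap in 8 of the 9 enzymes and in 59.2% of all genes. Only PHGDH, PSAT1 and MTHFD1L changed by over 2-fold in mean TPM.

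**Figure D1:**
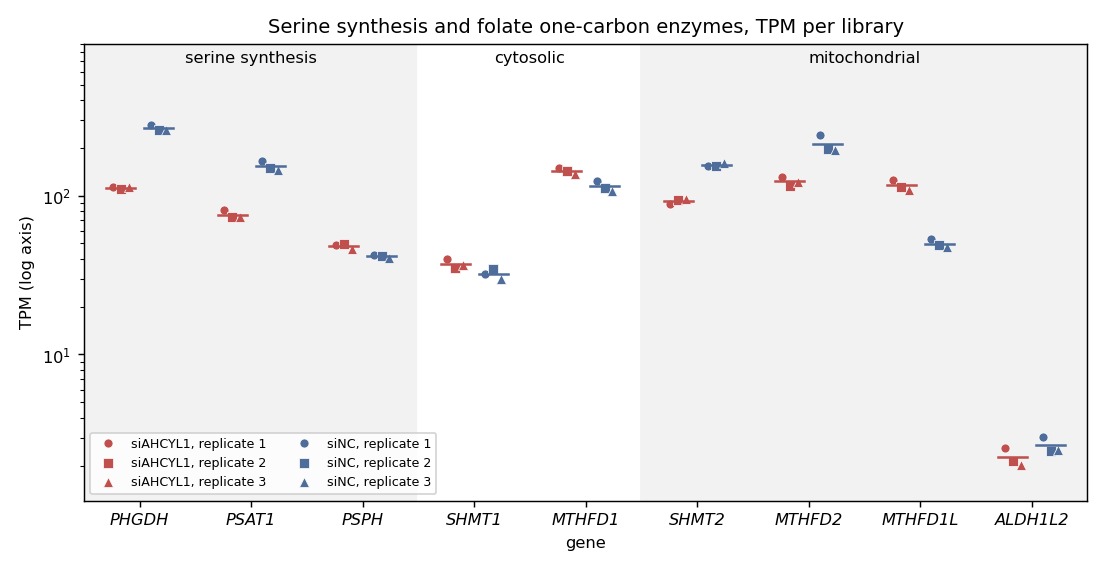
TPM of each enzyme on a log axis, with siAHCYL1 libraries in red left of siNC libraries in blue, one marker shape per replicate number and a line at each group mean. PHGDH, PSAT1, SHMT2 and MTHFD2 sit lower in siAHCYL1, MTHFD1L sits higher, and ALDH1L2 is near 2 TPM in both groups with overlapping values.

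PHGDH, which oxidises 3-phosphoglycerate in the first step of serine synthesis, had the largest fall of the 9. The gene lies on chromosome 1 at positions 119711934 to 119744215 (RefSeq annotation of GRCh38.p14, used for all places given here). It had 114, 109.92 and 113.24 TPM in siAHCYL1 cells, against 276.81, 258.51 and 258.96 TPM in siNC cells. Each siAHCYL1 library was under 50% of every siNC library. The means were 112 ± 2.17 TPM in siAHCYL1 and 265 ± 10.4 TPM in siNC (SD, n = 3 each), 2.36-fold lower (log2 fold change -1.23, SE 0.059, limma adjusted p = 8.41e-07). Among the 13266 genes this fold change stood at percentile 2.14. PHGDH was the most abundant of the 9 enzymes in siNC, at rank 593 of all genes tested, and only the fourth in siAHCYL1, at rank 1730.

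PSAT1, the transaminase of the second step, fell almost as far. On chromosome 9 at positions 78297125 to 78330093, it had 81.27, 73.34 and 72.94 TPM in siAHCYL1 cells, against 165.8, 149.09 and 145.1 TPM in siNC cells. The highest siAHCYL1 library stayed well under the lowest siNC library. The means were 75.8 ± 4.70 TPM in siAHCYL1 and 153 ± 11.0 TPM in siNC, 2.02-fold lower, with a log2 fold change of -1.01 and SE of 0.076 (limma adjusted p = 9.03e-06).

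PSPH, the phosphatase that releases serine in the third and last step, did not share the fall. It is on chromosome 7 at positions 56011064 to 56051444 and had 49.15, 49.36 and 46.07 TPM in siAHCYL1 cells, against 41.98, 41.47 and 40.73 TPM in siNC cells. The groups lay close together without overlapping. PSPH rose by a log2 fold change of 0.21 (SE 0.069, limma adjusted p = 0.0274), a mean of 48.2 ± 1.84 TPM in siAHCYL1 and 41.4 ± 0.629 TPM in siNC. This small rise lost its call without siAHCYL1 replicate 2 (adjusted p = 0.111), without siNC replicate 2 (0.080), without siNC replicate 3 (0.0763) and under both other scalings of the libraries (0.0587 and 0.148).

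Because the first and second enzymes fell and the third did not, the make-up of the serine synthesis transcripts shifted. The summed TPM of the 3 genes was 236 ± 6.92 in siAHCYL1 and 459 ± 21.8 in siNC, 51.5% of the control level. PSPH made up 19.8% to 21.2% of that sum in the siAHCYL1 libraries and 8.66% to 9.23% in the siNC libraries. PHGDH made up 46.6% to 48.8% in siAHCYL1 and 57.1% to 58.2% in siNC, and PSAT1 31.4% to 33.3% in siAHCYL1 and 32.6% to 34.2% in siNC. These sums and shares are descriptions and carry no test.

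**Figure D2:**
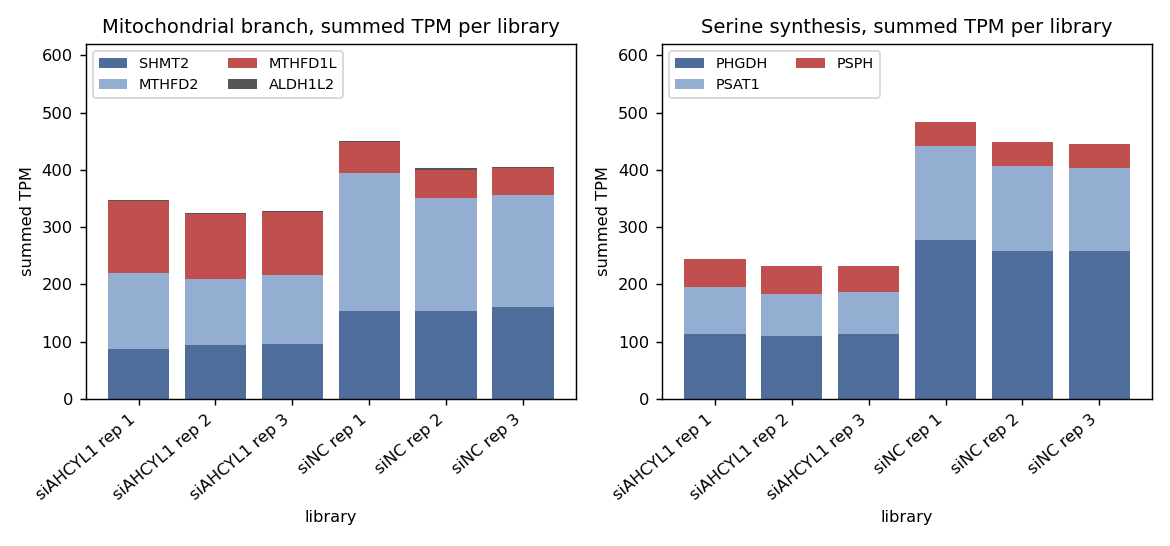
Summed TPM per library of the 4 mitochondrial enzymes (left) and the 3 serine synthesis enzymes (right), stacked by gene, with siAHCYL1 libraries left of siNC libraries. The mitochondrial sum averages 334 TPM in siAHCYL1 and 420 TPM in siNC, with a larger MTHFD1L part in siAHCYL1, and the serine synthesis sum averages 236 TPM in siAHCYL1 and 459 TPM in siNC.

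SHMT2, which splits serine into glycine and a folate-bound carbon unit inside mitochondria, fell. The gene, on chromosome 12 at positions 57229711 to 57234935, had 88.08, 93.71 and 95.36 TPM in siAHCYL1 cells, against 153.91, 154.02 and 161.26 TPM in siNC cells. No siAHCYL1 library came near the siNC values. SHMT2 thus averaged 59.1% of the control level, a log2 fold change of -0.75 (SE 0.062, limma adjusted p = 1.47e-05). A stretch of 33 exonic bases is shared with NDUFA4L2 and one of 427 bases with an antisense gene, both on the other strand.

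MTHFD2, the dehydrogenase and cyclohydrolase that oxidises the mitochondrial folate carrier, fell by about the same proportion, to 58.3% of the control mean. It is on chromosome 2 at positions 74198615 to 74217565 and had 131.7, 115.65 and 121.22 TPM in siAHCYL1 cells, against 240.6, 197.56 and 194.52 TPM in siNC cells. The groups did not overlap, although replicate 1 of siNC stood above its other 2 libraries. This gave a log2 fold change of -0.77 (SE 0.091, limma adjusted p = 0.000124). Leaving out replicate 1 of siAHCYL1 and of siNC gave -0.72 (6.04e-05). MTHFD2 shares 1324 exonic bases with SLC4A5 on the other strand, which was at 1.54 to 1.82 TPM in siAHCYL1 and 1.76 to 2.37 TPM in siNC. It also shares 295 exonic bases with AC006030.1 on the other strand, whose level is not given here.

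MTHFD1L, the mitochondrial ligase that frees formate in the next step, went the other way. On chromosome 6 at positions 150865702 to 151101887, it had 126, 114.04 and 109.11 TPM in siAHCYL1 cells, against 53.54, 48.68 and 47.18 TPM in siNC cells. Every siAHCYL1 library was over 2-fold above every siNC library. The means were 116 ± 8.69 TPM in siAHCYL1 and 49.8 ± 3.32 TPM in siNC, 2.34-fold higher (log2 fold change 1.21, SE 0.080, limma adjusted p = 4.46e-06). Among all genes tested this fold change stood at percentile 97.0. MTHFD1L went to the third place among the 9 enzymes in siAHCYL1 (rank 1653 of all genes), against the sixth in siNC (rank 3692).

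ALDH1L2, which burns mitochondrial formyl groups to carbon dioxide and forms NADPH, was scarce in both groups. The gene, on chromosome 12 at positions 105019790 to 105084458, had 2.58, 2.15 and 2.03 TPM in siAHCYL1 cells, against 3.03, 2.48 and 2.52 TPM in siNC cells. The groups overlapped, and the gene did not pass the test (log2 fold change -0.18, SE 0.15, limma adjusted p = 0.361). It shares 145 exonic bases with C12orf45 on the other strand, which was at 25.96 to 30.9 TPM in siAHCYL1 and 32.69 to 55.01 TPM in siNC. The libraries are non-directional, so reads from that stretch cannot be told apart between the genes.

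In the cytosol, MTHFD1, a trifunctional enzyme that interconverts the folate-bound carbon units and captures formate, rose modestly. It is on chromosome 14 at positions 64388353 to 64460025 and had 148.54, 143.08 and 137.66 TPM in siAHCYL1 cells, against 124.09, 111 and 107.23 TPM in siNC cells. The groups did not overlap (log2 fold change 0.33, SE 0.072, limma adjusted p = 0.00448). Its exons share 178 bases with ZBTB25 on the other strand, which stayed at 0.65 to 2.04 TPM in siAHCYL1 and 0.77 to 1.88 TPM in siNC. They also share 756 bases with the antisense gene AL122035.2 and 101 bases with the antisense gene AL122035.1, whose levels are not given here. MTHFD1 was the most abundant of the 9 enzymes in siAHCYL1 and the fifth in siNC.

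SHMT1, the cytosolic counterpart of SHMT2, had 39.92, 35.2 and 36.36 TPM in siAHCYL1 cells, against 32.12, 34.39 and 29.69 TPM in siNC cells. Its gene lies on chromosome 17 at positions 18327873 to 18363550. All siAHCYL1 values were above all siNC values, but the difference did not pass the test (log2 fold change 0.21, SE 0.087, limma adjusted p = 0.0725). With the replicate number as a block it did (0.21, adjusted p = 0.0451). SHMT1 shares 196 exonic bases with SMCR8 on the other strand, at 18.3 to 19.73 TPM in siAHCYL1 and 16.41 to 17.44 TPM in siNC. It also shares 73 exonic bases with the microRNA gene MIR6778 on the same strand, whose level is not given here.

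**Figure D3:**
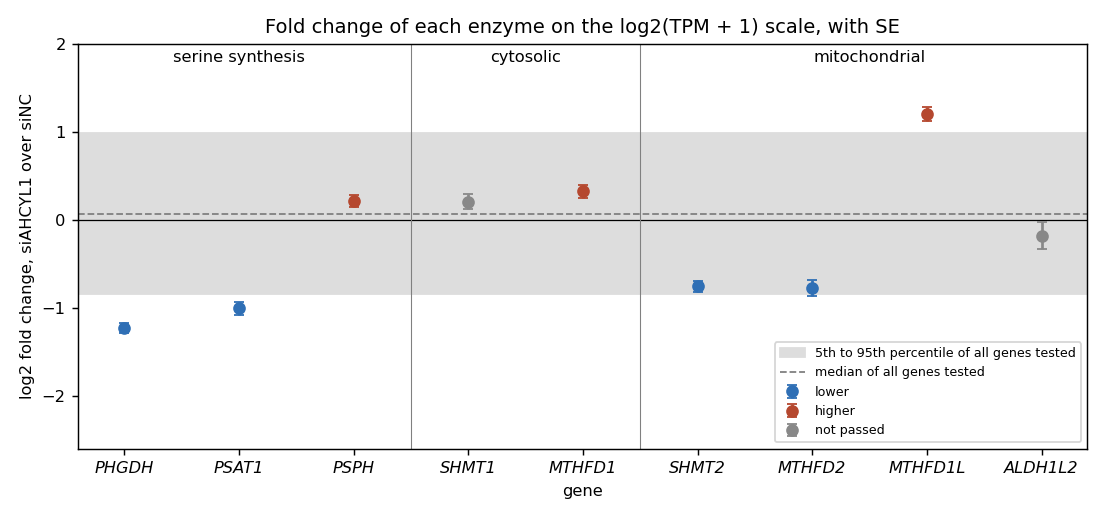
Log2 fold change of each enzyme, siAHCYL1 over siNC, on the log2(TPM + 1) scale with its SE, coloured by the limma call. The grey band runs from the 5th to the 95th percentile of all 13266 genes (-0.84 to 0.99) around their median of 0.06, and PHGDH, PSAT1 and MTHFD1L lie outside it.

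Promoter sequences were in the RefSeq tables for 6 of the 9 genes (PHGDH, PSAT1, SHMT1, MTHFD1, MTHFD2 and MTHFD1L), as windows of 250 bases before to 50 after each annotated start. Both strands were searched for TGATGNAA, the core of the element bound by ATF4 with C/EBP partners, and for CACGTG, the E-box bound by MYC and related factors. The core TGATGNAA occurs in 3.62% and CACGTG in 7.26% of all 35116 promoter windows. Both were found in 3 overlapping windows of MTHFD1L, which hold the same stretch, and CACGTG was also found in MTHFD1. Neither was found in the windows of PHGDH, PSAT1, MTHFD2 and SHMT1, nor in the remaining MTHFD1L window about a distant start. The windows of MTHFD1L (chr6:150866236-150866535, plus strand) and MTHFD1 (chr14:64388103-64388402, plus strand) are shown because these 2 folate enzymes rose, with the matches in capitals. In the MTHFD1L window CACGTG starts at base 97 and TGATGCAA at base 122, without overlap, and in the MTHFD1 window CACGTG starts at base 236.
MTHFD1L: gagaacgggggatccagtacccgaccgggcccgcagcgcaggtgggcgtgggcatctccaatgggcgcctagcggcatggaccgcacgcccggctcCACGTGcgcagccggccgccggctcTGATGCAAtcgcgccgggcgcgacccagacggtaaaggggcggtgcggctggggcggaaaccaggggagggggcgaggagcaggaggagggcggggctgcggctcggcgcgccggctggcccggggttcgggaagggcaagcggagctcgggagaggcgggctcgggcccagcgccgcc
MTHFD1: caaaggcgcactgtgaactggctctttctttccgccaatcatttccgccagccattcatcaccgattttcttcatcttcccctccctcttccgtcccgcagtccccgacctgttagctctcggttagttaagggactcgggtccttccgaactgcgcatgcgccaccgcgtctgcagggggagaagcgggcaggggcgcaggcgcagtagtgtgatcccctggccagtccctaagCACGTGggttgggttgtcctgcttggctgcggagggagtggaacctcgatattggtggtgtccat
A match is only a run of letters, and binding was not measured here. A link between matches and changes in level was not tested, and PSPH, which rose, and SHMT2, which fell, had no window.

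The cytosolic and mitochondrial branches were then compared within each library, since a ratio of 2 genes in 1 library is not changed by scaling that library by 1 factor. SHMT2 exceeded SHMT1 2.21-, 2.66- and 2.62-fold in the siAHCYL1 libraries, against 4.79-, 4.48- and 5.43-fold in the siNC libraries. On the log2(TPM + 1) scale this ratio fell by 0.96, with no overlap between groups (two-sided exact permutation p = 0.1, adjusted p = 0.133 over 4 ratios). With 3 libraries against 3 the smallest p this test can give is 0.1, so none of the ratios could pass.

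The ratio of MTHFD2 to MTHFD1 was 0.887, 0.808 and 0.881 in the siAHCYL1 libraries, against 1.94, 1.78 and 1.81 in the siNC libraries. MTHFD2 was thus below MTHFD1 in every siAHCYL1 library and above it in every siNC library, a log2 difference of -1.10 (exact permutation p = 0.1, adjusted p = 0.133). The ratio of MTHFD1L to MTHFD1 moved the opposite way, at 0.848, 0.797 and 0.793 in siAHCYL1 and 0.431, 0.439 and 0.440 in siNC. That log2 difference was 0.88 (exact permutation p = 0.1, adjusted p = 0.133). The fourth ratio, ALDH1L2 to ALDH1L1, gave no comparison of branches, because ALDH1L1, the cytosolic counterpart, was listed at 0 in all 6 libraries.

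Inside the mitochondrial branch, MTHFD2 and MTHFD1L reached near equal levels after the knockdown. MTHFD2 exceeded MTHFD1L 1.05-, 1.01- and 1.11-fold in the siAHCYL1 libraries, against 4.49-, 4.06- and 4.12-fold in the siNC libraries. This pair was singled out after its values were seen, so it carries no test. MTHFD1L made up 33.3% to 36.2% of the summed mitochondrial TPM in siAHCYL1 and 11.6% to 12.1% in siNC. The summed mitochondrial TPM was 334 ± 12.6 in siAHCYL1 and 420 ± 27.2 in siNC, and the summed cytosolic TPM was 180 ± 7.42 in siAHCYL1 and 146 ± 9.67 in siNC. The mitochondrial share of both was 64.6% to 65.3% in the siAHCYL1 libraries and 73.5% to 74.8% in the siNC libraries.

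**Figure D4:**
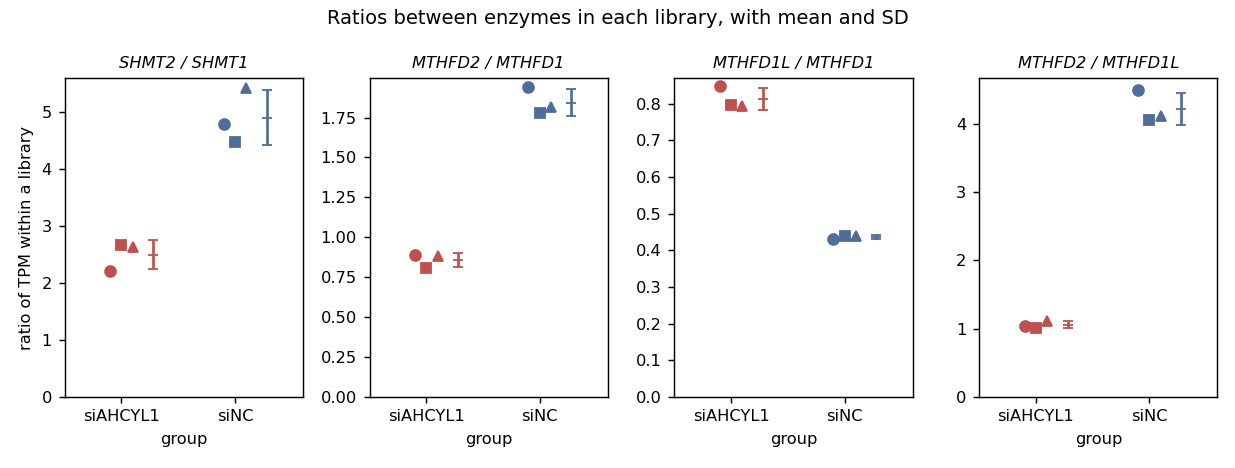
Ratio of TPM between enzyme pairs within each library, siAHCYL1 left of siNC, with marker shapes for replicates 1 (circle), 2 (square) and 3 (triangle) and the mean and SD beside them. SHMT2 to SHMT1, MTHFD2 to MTHFD1 and MTHFD2 to MTHFD1L are lower in every siAHCYL1 library than in any siNC library, and MTHFD1L to MTHFD1 is higher.

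The order of the levels changed with these shifts. In siAHCYL1 the order was MTHFD1, MTHFD2, MTHFD1L, PHGDH, SHMT2, PSAT1, PSPH, SHMT1 and ALDH1L2, and the ranges of MTHFD2 and MTHFD1L overlapped, as did those of MTHFD1L and PHGDH. In siNC it was PHGDH, MTHFD2, SHMT2, PSAT1, MTHFD1, MTHFD1L, PSPH, SHMT1 and ALDH1L2, and only SHMT2 and PSAT1 overlapped among neighbours. All other neighbours in either order were separated in all libraries. All 9 genes together summed to 751 ± 26.6 TPM in siAHCYL1 and 1025 ± 57.8 TPM in siNC. Replicate 1 was the highest library of its group for 7 of the 9 genes in siAHCYL1 and for 7 of 9 in siNC. PHGDH, PSAT1, MTHFD1, MTHFD2, MTHFD1L and ALDH1L2 were among them in both groups, SHMT1 in siAHCYL1 only and PSPH in siNC only.

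Among 10875 genes averaging at least 5 TPM, those most like PHGDH over the 6 libraries were FAM234B (Pearson r = 0.9998 on log2(TPM + 1)), PPM1H (0.9997), ATP6V0B (0.9994), AHCYL1 itself (0.9990) and SMG5 (0.9987). With 6 libraries in 2 groups such an r mostly carries the difference between groups, and 238 genes had r above 0.99. FAM234B had 8.94 ± 0.300 TPM in siAHCYL1 and 27.8 ± 1.52 TPM in siNC. ATP6V0B, a subunit of the lysosomal proton pump, had 186.41 to 193.63 TPM in siAHCYL1 and 285.44 to 297.88 TPM in siNC.

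Of 9 tested genes among 11 other folate enzymes, 5 rose and 1 fell (median log2 fold change 0.31, against 0.06 for all genes). For this and the lists that follow, 30.4% of all genes tested were higher and 21.2% lower. TYMS, which makes thymidylate from a folate-bound carbon unit, had 581 ± 11.3 TPM in siAHCYL1 and 381 ± 39.3 TPM in siNC (log2 fold change 0.61, limma adjusted p = 0.000158). MTR, methionine synthase, rose by 0.51 (adjusted p = 0.00113). MTHFD2L, a paralog of MTHFD2, had 3.66, 2.65 and 2.58 TPM in siAHCYL1 cells, against 3.15, 1.82 and 2.23 TPM in siNC cells, overlapped and did not pass (0.23, adjusted p = 0.343).

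Of 10 tested folate and serine carriers and folate polyglutamate enzymes, 4 fell and 1 rose (median -0.04), where 51.6% of all genes tested changed. Without siAHCYL1 replicate 2 the number changed was 3. SLC19A1, the reduced folate carrier of the plasma membrane, had 29.7 ± 1.67 TPM in siAHCYL1 and 43.3 ± 3.56 TPM in siNC (-0.52, limma adjusted p = 0.000932). SLC25A32, which carries folate into mitochondria, fell by 0.32 on the log2 scale (adjusted p = 0.00964). GGH, which trims folate polyglutamates, fell by 0.24 (0.0224), a call that was lost without siAHCYL1 replicate 2 (0.053) or 3 (0.0853) or siNC replicate 1 (0.0675), or without the trend (0.0577). SFXN3, a mitochondrial serine carrier, rose by 0.48 (0.000886).

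Of 5 tested genes of glycine cleavage and choline-derived units, 2 rose and 1 fell (median -0.17). ALDH7A1, an aldehyde dehydrogenase that can oxidise betaine aldehyde, rose by 0.63 (limma adjusted p = 0.000468), and DLD, the dihydrolipoamide dehydrogenase shared by several complexes, by 0.44 (0.00414). GLDC, the decarboxylase of glycine cleavage, fell by 0.36 (0.0204), and its call was lost without siAHCYL1 replicate 2 (0.058) or 3 (0.0507) or siNC replicate 2 (0.0865).

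Of 11 tested genes of serine use, 3 rose and 1 fell (median 0.15), a smaller share than the 51.6% of all genes tested. The list includes CTH, which acts after CBS and does not itself use serine. Without siAHCYL1 replicate 2 the number changed was 2. SRR, serine racemase, had 28.28, 24.9 and 22.94 TPM in siAHCYL1 cells, against 10.33, 12.29 and 9.59 TPM in siNC cells (1.17, limma adjusted p = 5.07e-05). SDSL, a serine dehydratase-like enzyme, had 5.29, 4.9 and 5.04 TPM in siAHCYL1 cells, against 0.53, 0.9 and 0.85 TPM in siNC cells. SDSL met the 1 TPM filter only through its siAHCYL1 libraries, so its place among the 3 that rose is a description, and no fit that leaves out a single siAHCYL1 library tested it. PTDSS1, which builds phosphatidylserine, fell by 0.43 (0.000468). SPTLC3, a subunit of the enzyme that starts sphingolipid synthesis from serine, rose by 0.45 (0.0189), a call lost without siAHCYL1 replicate 2 (0.0576), siNC replicate 1 (0.0523), siNC replicate 3 (0.0644) or replicate 1 of both groups (0.0681).

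De novo purine synthesis uses formyl groups made by these enzymes. Of its 13 genes, 4 fell and 1 rose (median -0.16), a smaller share than the 51.6% of all genes tested that changed. Without siAHCYL1 replicate 1 the number changed was 9. PPAT, the first committed enzyme, had 40.7 ± 3.75 TPM in siAHCYL1 and 55.2 ± 7.24 TPM in siNC (-0.43, limma adjusted p = 0.00826). PFAS fell by 0.32 (0.00705) and IMPDH1, of guanine nucleotide synthesis, by 0.27 (0.00541). IMPDH2 rose by 0.23 (0.0208), a call lost without siNC replicate 3 (0.0777), under quantile normalization (0.117) and without the trend (0.0501).

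The amino acid stress response has ATF4 as its factor, which is known to drive several of the 9 enzymes. Genes of that response went both ways, with 9 of 20 tested lower and 5 higher (median -0.14). Among all genes tested 21.2% were lower and 30.4% higher. ATF4 had 438.49, 428.05 and 415.49 TPM in siAHCYL1 cells, against 567.49, 529.93 and 535.87 TPM in siNC cells (-0.35, SE 0.056, limma adjusted p = 0.000768). ASNS, asparagine synthetase, fell by 1.23 (2.64e-05), and the cystine carrier gene SLC7A11 fell by 2.77 (5.03e-07). TRIB3, a pseudokinase induced by ATF4, rose by 0.77 (5.95e-05) and GPT2, a mitochondrial transaminase, by 0.59 (0.000136). Of 12 tested genes in the list of NADPH-forming enzymes, 5 fell and 3 rose (median -0.11). That list also holds PGLS, TKT, TALDO1, NADK and NADK2, which do not form NADPH themselves. NNT, the mitochondrial transhydrogenase, had 114 ± 9.15 TPM in siAHCYL1 and 59.8 ± 4.51 TPM in siNC (0.92, limma adjusted p = 2.47e-05). The cytosolic IDH1 fell by 0.51 (0.00044), and PGLS, of the pentose phosphate pathway, rose by 0.73 (0.000142).

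**Figure D5:**
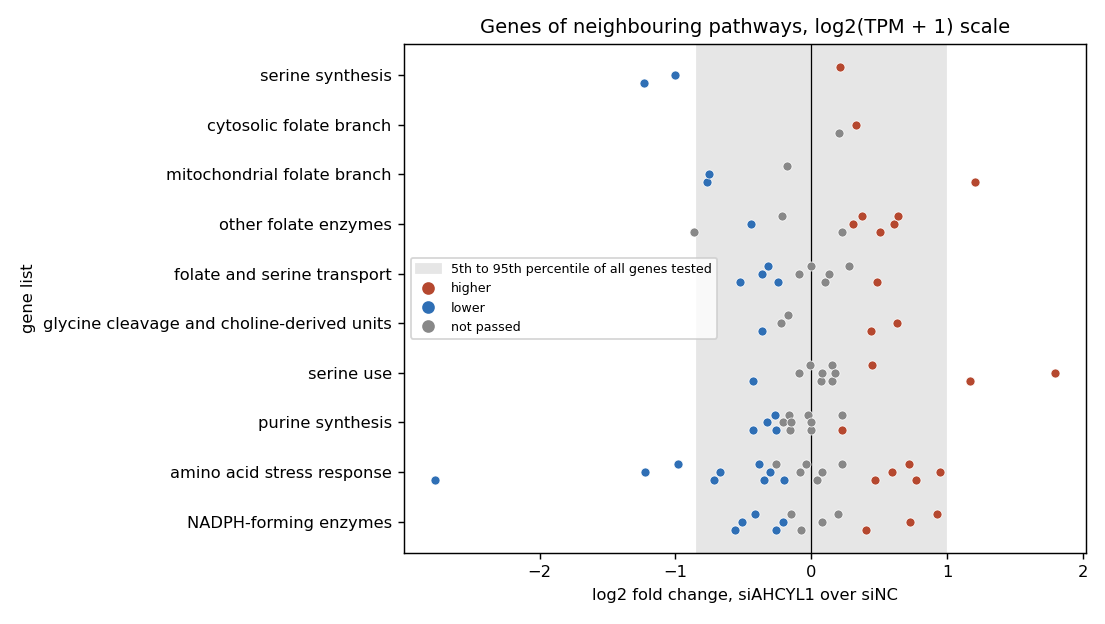
Log2 fold change, siAHCYL1 over siNC, of every tested gene in the enzyme groups and in 7 neighbouring lists, 1 point a gene coloured by its limma call and spread vertically for legibility. The grey band holds the middle of all genes tested (-0.84 to 0.99), and most neighbouring genes lie inside it, with SLC7A11 (-2.77) and SDSL (1.79) at the ends. SDSL is plotted because its siAHCYL1 libraries alone reached 1 TPM.

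The 7-mer GTATGCA, chosen with earlier results of these data known, is carried in annotated 3′ UTRs by 1137 of 11935 tested genes with such a UTR and by 1 of the 9 enzymes, MTHFD1, in some of its transcripts. Pseudogene copies named after 5 of the 9 genes (7 of MTHFD2, 4 of PSAT1 and 1 each of PSPH, SHMT1 and MTHFD1) are annotated, 14 in all, of which only MTHFD2P1 has a row in the table. RSEM, named in the submitters' processing notes, divides shared reads between the transcripts of its reference by estimated abundance. The level of MTHFD2 is uncertain to that extent. How reads from the copies without a row were handled is not known.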

How the data were processed

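The authors deposited 1 table of TPM per gene and library, scaled to a fixed total per library. The submitters' processing notes name the tools STAR and RSEM and the build GRCh38, with no version, and the annotation is not given in the sources used here. Library preparation was non-directional, per the labels' protocols. Depth is unknown, so no counting interval was computed. Columns with the prefix nc were taken as siNC and those with si as siAHCYL1, the only other group.

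Across all genes, log2(TPM + 1) was tested with limma 3.58.1 (R 4.3.3; intensity trend, two-sided, Benjamini-Hochberg over 13266 genes, adjusted p under 0.05), and the fitting was tested on simulated data. Fold changes on this scale understate those of low genes. Branch ratios had an exact permutation test. The 9 members, the 7 neighbouring lists (92 genes, 4 matched by an older symbol), the markers, motifs and 7-mer were chosen with earlier results of these data known. Named were all members, up to 4 changed genes per list by smallest adjusted p, 6 folate and stress genes with any result, and the 5 genes most like PHGDH. Some genes under this rule are not reported here. As alternatives, libraries were rescaled by median ratios or by quantiles, the replicate number was a block, the pseudocount was 0.1, low genes were kept or those under 5 TPM dropped, moderation was robust without a trend, and each library was omitted in turn. The fit without replicate 1 of both groups was added after seeing the data.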

Additional observations from a re-analysis of the deposited data

How the results depend on the processing

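No direction of the 9 enzymes or of the 3 branch ratios between expressed enzymes reversed under the alternatives run. Nor did that of AHCYL1, of the tested genes named from the neighbouring lists or of those most like PHGDH. The marker genes were not compared under the alternatives. PHGDH, PSAT1, SHMT2, MTHFD2, MTHFD1L and MTHFD1 kept their calls in all 14 alternatives, and ALDH1L2 passed in none of the 13 that tested it, since the filter at 5 TPM removed it. PSPH lost its call under median-of-ratios scaling (0.15) and quantile normalization (0.11). With 1 library left out, log2 fold changes ranged from 0.20 to 0.25 for PSPH, and the number of genes changed from 5566 to 6725 against 6844.

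The replicate numbers were not shown to pair libraries. The deviations of numbers 1, 2 and 3 correlated between groups at 0.233, 0.00092 and 0.154. Replicate 2 of siAHCYL1 correlated best with siNC replicate 3 (0.153). The value for number 1 was the highest of any pair, and siAHCYL1 replicate 1 with siNC replicate 3 gave -0.256. On the second principal component (9.78% of the variance), replicate 1 stood at 17.6 in siAHCYL1 and 15.0 in siNC. The other libraries stood between -14.5 and -1.23. The source of this shift of replicate 1 in both groups was not tested. With the replicate block 7919 genes changed, SHMT1 passed (0.21) and purine genes changed numbered 10 against 5. Purine genes changed numbered 9 under median-of-ratios scaling, 3 without the trend and 8 without replicate 1 of both groups, and 4 to 9 with 1 library left out. Quantile normalization gave 5 changed genes of glycine cleavage against 3, and the filter at 5 TPM gave 2 of serine use against 4, with fewer genes tested. With 1 library left out, changed genes ranged from 3 to 4 for folate and serine transport and from 2 to 4 for serine use. Unless stated, the cause was not tested. TPM hold no depth, so its limits were not assessed.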
